A study of Homo sapiens with 6 samples.

Results

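DHRS2 (ENSG00000100867.15) lies on the plus strand of chromosome 14 in the hg38 build of the human genome, at chr14:23630115-23645639. Its members here are the positions of the deposited base counts that fall inside this gene body on the plus strand, which are 2236 of 176343 positions listed under imbalanced dNTP, 1152 of 246881 listed under balanced dNTP, and 473 of 35761 listed under both. The gene was chosen by a measured value, its number of called sites, and that number rests on the difference between imbalanced and balanced dNTP libraries. The number of sites and that difference are therefore given as a description.

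The data are Nm-mut-seq counts from chromatin-associated RNA (caRNA) of HepG2 cells, a human liver cancer line. The ligated RNA of each of 3 replicates was divided into equal parts. For the imbalanced dNTP library, reverse transcriptase was given 1 mM dATP but only 2 µM of dCTP, dGTP and dTTP each, and for the balanced dNTP library, the input, every nucleotide was at 1 mM. All 6 libraries come from the same line, for which the labels name no treatment of the cells. The methods call the replicates biological but do not say how they were separated, and p-values measure only the spread between them.

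DHRS2, also known as HEP27, encodes a member of the short-chain dehydrogenase/reductase family, enzymes that oxidize or reduce small molecules. 2′-O-methylation (Nm) adds a methyl group to the ribose of any of the 4 nucleotides. Under scarce dNTP, reverse transcriptase can misread a methylated G, A or C so that the read holds a T, and the mutation ratio is the share of reads with T in the depth of a position. RNA that remains with chromatin is rich in transcripts still being made or spliced, and so holds introns beside exons.

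The canonical transcript of DHRS2 in GENCODE release 44 runs over chr14:23636364-23645639, 9276 nt with 9 exons and 8 introns. Exons make up 1676 nt and introns 7600 nt. The summed depth over listed positions ranged from 17063930 to 22485865 in the imbalanced and from 22974020 to 34367262 in the balanced libraries, and within DHRS2 it ranged from 79651 to 148582 over all 6. The imbalanced table lists positions with at least 3 reads with T in 1 or more of its libraries, and the balanced table lists those with at least 1, so mutation ratios over listed positions leave out positions with few or no T reads and cannot be taken as averages over the gene. No listed position had a depth below 5 in any library of its table, so an unlisted position can also be one of low depth. Of 10 hepatocyte and HepG2 genes 8 were listed under imbalanced dNTP, including ALB and AFP, while FGB and TTR were not, and none of 6 markers of blood, endothelial and connective tissue cells was listed in either table.

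The sequences around the sites that are described singly are shown first. Each line gives the sense strand of hg38 for 21 nt, with the called base in capitals at the centre, and the sites were taken as the 5 exonic and 5 intronic sites with the highest mean mutation ratio at 30 or more reads in each imbalanced library, and the highest G, A and C at 50 or more reads. Sites of lower depth can have higher ratios and are not shown.
C at 23636631, exon 1: aggccaagaaCccatcaattc
G at 23636701, exon 1: tgagactattGccaagcagtg
A at 23637280, intron 1: gatttctagtAaaaatttcag
C at 23638631, intron 1: gaataatttcCccagttttat
G at 23639313, exon 3: ggcattgtgtGccacgtgggg
G at 23640173, intron 4: attgctgtctGccaggcacca
G at 23642063, intron 4: cttccagagtGtcaggacatg
G at 23643005, intron 4: aatacctcttGcaccagtcag
G at 23643510, intron 5: gctggtcattGtcaccttacc
G at 23644427, exon 7: tgtctacaatGtcagcaagac
G at 23644665, intron 7: ggtcctcattGttctctgaac
G at 23645344, exon 9: ggcagagtctGccattctgcc

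All 9 G sites in this set followed a T in the DNA, which is a U in the RNA, a feature taken up again with the base context.

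DHRS2 was read as a transcript that starts at the canonical start. The gene body extends 6249 nt further upstream because other annotated transcripts begin there, but no position of that stretch was listed in either table. The first listed position lay 8 nt after the canonical start under imbalanced and 3 nt after it under balanced dNTP. No position was listed on the minus strand within the gene body, and none on the plus strand in the 20000 nt before it. All 2236 and 1152 reference bases of the tables matched hg38.

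Beyond the annotated 3′ end, reads continued at falling depth. Up to 3399 nt after the end of the gene, 91 positions were listed under balanced dNTP, and up to 3199 nt, 51 positions under imbalanced dNTP. Balanced median depths in replicates 1, 2 and 3 were 24, 17 and 23 over the first 1000 nt and 17.5, 9.5 and 15.5 over the next 1000 nt. Under imbalanced dNTP they were 13, 12 and 22, and then 10.5, 9 and 18. The decline was thus seen in all 6 libraries, and none of the downstream positions met the site criteria. These criteria need 10 or more reads, 3 or more of them with T, in each imbalanced library. At such depths few positions could meet them, so no conclusion is drawn from the lack of sites.

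At listed positions the introns of DHRS2 were read almost as deeply as its exons. Under imbalanced dNTP 35.6% of the exonic and 32.5% of the intronic G, A and C positions were listed. Listing needs reads with T and so depends on depth, and the depths below leave out unlisted positions. Over listed positions the median exon depth was 51, 47 and 66 reads in imbalanced replicates 1, 2 and 3, and the median intron depth was 46, 40 and 63. In the balanced libraries the exon medians were 120, 78.5 and 111 and the intron medians 96, 61 and 90. Exons were deeper than introns in each of the 6 libraries.

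At the 112 exonic and 361 intronic positions listed in both tables, the log2 ratio of mean exon to mean intron depth was 0.33, 0.34 and 0.19 in imbalanced and 0.38, 0.36 and 0.38 in balanced replicates 1, 2 and 3. Averaged over the libraries of a replicate, it was 0.33 ± 0.036 (SD, n = 3), or 1.26-fold. The exact sign-flip test over the 3 replicates gave a two-sided p of 0.25, which is the smallest that 3 replicates allow. Of the 16 such tests made for DHRS2, all had an exact p of 0.25 and an adjusted p of 0.25 (Benjamini-Hochberg), so sizes and the number of replicates in one direction are given in their place below.

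**Figure D1:**
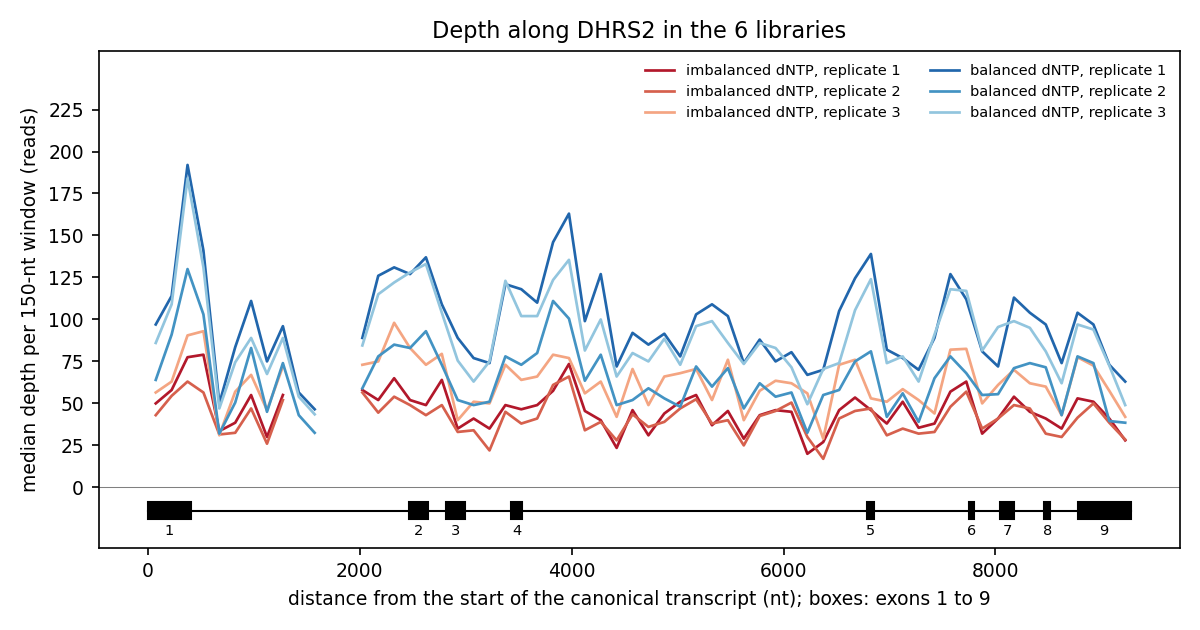
Median depth in 150-nt windows holding at least 5 listed positions, against the distance from the start of the canonical transcript, for the 3 imbalanced (red) and 3 balanced (blue) libraries. Boxes mark exons 1 to 9 and gaps are windows with fewer listed positions. The lines of all 6 libraries run on through the introns, and those of the 3 balanced libraries are highest near the end of exon 1.

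A larger step between exons and introns was found in A2M, FN1 and APOB, the 3 protein-coding genes with which DHRS2 was compared. A2M encodes the protease inhibitor alpha-2-macroglobulin, FN1 the matrix protein fibronectin and APOB the main protein of low-density lipoprotein. Mean exon depth over mean intron depth was 2.06-fold for A2M, 2.93-fold for FN1 and 1.93-fold for APOB, against 1.26-fold for DHRS2. On the log2 scale the difference of DHRS2 minus A2M was -0.72 ± 0.045, that of DHRS2 minus FN1 -1.22 ± 0.033 and that of DHRS2 minus APOB -0.62 ± 0.023 (SD, n = 3), with the same sign in 3 of 3 replicates each. These comparisons were added after the values were seen.

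Annotation bears on what counts as an intron of DHRS2. GENCODE lists 10 transcripts, of which 3 are of the retained-intron type, and 5730 of the 7600 canonical intron bases (75.4%) lie in an exon of some annotated transcript. Introns 4 to 8 lie wholly in such exons, intron 1 to 38.7%, and introns 2 and 3 not at all. In A2M, FN1 and APOB the same share was 3.26%, 12.6% and 2.48%.

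Intron depth was close inside and outside the exons of other transcripts. The median depth was 48, 40 and 62 over positions that are intronic in every transcript and 46, 40 and 63 over canonical intron positions covered by another transcript's exon (imbalanced replicates 1, 2 and 3). With exons of any transcript taken as exons, the log2 ratio of exon to intron depth in DHRS2 fell to 0.032 ± 0.026 (SD, n = 3). Reads of unspliced RNA and of an isoform that keeps an intron cannot be told apart in these counts, nor can fewer cells with the transcript and less RNA per cell.

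Which exon or intron was deepest varied between libraries, while exon 3 had the lowest exon median in all 3 imbalanced libraries. In imbalanced replicate 1 the exon medians ran from 36 reads (exon 3) to 69 (exon 8) and the intron medians from 34 (intron 6) to 60 (intron 2). In balanced replicate 1 they ran from 91 (exon 9) to 142 (exon 8) and from 71 (intron 6) to 109.5 (intron 1). Exon 9, which holds the stop codon and the last untranslated stretch, had medians of 44, 41 and 62 in the imbalanced libraries, below those of exon 1 at 68, 56 and 75.5 in every replicate. The longest stretch with no listed position was 84 nt in intron 1 under balanced and 157 nt in intron 4 under imbalanced dNTP.

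The level of DHRS2 differed little between library kinds. At the 473 positions listed in both tables, the mean depth per 1000000 reads of depth summed over all such positions was, on the log2 scale, 1.87, 1.87 and 2.14 in imbalanced and 1.96, 1.97 and 2.22 in balanced replicates 1, 2 and 3. The balanced library was higher in each pair, by 0.079 to 0.094, and the difference of imbalanced minus balanced was -0.088 ± 0.0078 (SD, n = 3). Replicate 3 was the highest in both kinds, with replicates 1 and 2 close together below it.

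Among 85 protein-coding genes with at least 30 such positions, the level patterns nearest to that of DHRS2 over the 6 libraries were those of FN1 (Pearson r of 0.995), the complement gene C3 (0.979) and the collagen gene COL27A1 (0.932). The median over the 85 genes was -0.57. The 6 libraries are 3 pairs that share their RNA and the depths are relative to the same totals, so these values only order the genes.

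Reads with T under imbalanced dNTP made up 5.21%, 5.28% and 5.38% of the depth in replicates 1, 2 and 3 over the 2229 DHRS2 positions read 10 or more times in every one. In the balanced libraries the share over the 1152 positions of their own table was 0.466% ± 0.0134 (SD, n = 3). Mismatches to bases other than T stood at 0.251% under imbalanced and 0.218% under balanced dNTP. The libraries of the 2 kinds did not overlap in reads with T, which is the contrast that chose the gene, and the tables were listed by different minimum numbers of T reads.

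A position counted as a called site if each of the 3 imbalanced libraries had 10 or more reads there, 3 or more of them with T, and a mutation ratio over 3 times the ratio in its input. The study also required a ratio above that of an unmodified spike-in, which was not applied here. Called sites are therefore not the study's own set, and over the whole table they outnumbered the sites it reported. Without the spike-in, T reads from Nm cannot be told apart from those that imbalanced dNTP gives on unmodified RNA. DHRS2 had 344 called sites, which is 15.4% of its positions at that depth, where 26.7% of such positions were called over the whole table. Of the 29651 called positions of the whole table, 10215 lay in NEAT1 and 4118 in MALAT1, with median depths of 284 to 786 reads. In A2M 833 of 6188 such positions were called, in FN1 552 of 4999 and in APOB 739 of 6011. By edgeR, 222 of the 473 positions listed in both tables were higher in mutation ratio in the imbalanced libraries and none was lower, where 73.9% of all positions tested were called higher. Without the replicate number as a block the count was 357. Listing needs at least 3 reads with T in an imbalanced library but only 1 in a balanced one, and the same contrast chose the gene. The direction at these positions was therefore largely set beforehand and is given as a description. The fitted log2 change was above 0 at 472 of the 473 positions, with a median of 3.24 against 3.94 over all positions.

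The exception was a C position in intron 4 that read as T in both kinds of library. Its ratios were 70%, 100% and 66.7% under imbalanced dNTP at depths of 10, 13 and 15, and 90.2%, 90.3% and 90.6% under balanced dNTP. It failed the input criterion and is not among the called sites.

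Just inside the criteria, 174 called sites had a lowest count of 3 reads with T and a median mutation ratio of 7.77%. Just outside, 377 positions had a lowest count of 2 and a median of 6.18%. The criteria thus divided positions whose ratios were close to each other. The lowest depth of a called site over the 3 libraries ran from 16 to 97 with a median of 47, and no called site reached the depth of 100 set for the naming of exonic sites. For 260 of the 344 sites the input did not list the position, so its ratio was taken as 0.

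The number of positions that passed in a single replicate was 1056, 915 and 1525 in replicates 1, 2 and 3. Of these, 342, 262 and 708 passed in that replicate alone, and 32.6%, 37.6% and 22.6% passed in all 3. Over the whole table the latter shares were 42.7%, 48.8% and 28.7%.

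Mutation ratios of these positions were lower when read in another replicate than the one that passed them. The share of T was 8.13%, 9.08% and 6.91% in the replicate that passed them and 5.09% to 5.91% in the others, with 9.29% to 21.8% of the positions without any T read there. All 6 readings in another replicate lay below all 3 in the same replicate. Exonic positions read 4.45% to 5.76% in the other replicates and intronic positions 5.27% to 6.05%.

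**Figure D2:**
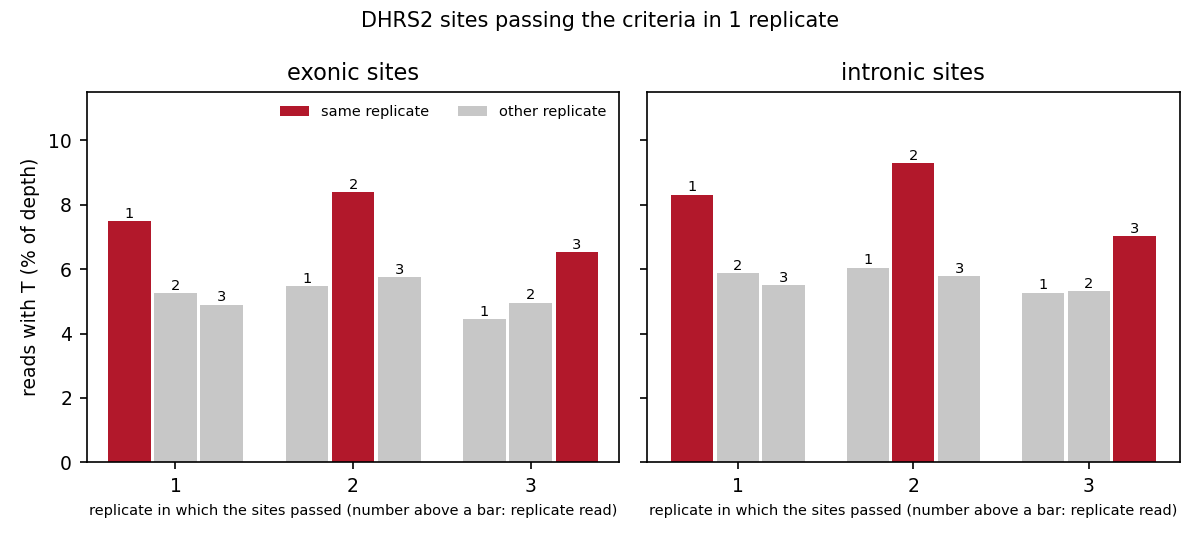
Share of reads with T (percent of depth) at DHRS2 positions that met the criteria in 1 replicate, for exonic (left) and intronic (right) positions. Red bars are the replicate that passed them and grey bars the others, named by the number above the bar. In both panels every grey bar is below the red bar of its set.

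The called sites of DHRS2 followed the lengths of its exons and introns. Introns held 277 called sites and exons 67, of which 39 were coding. Per G, A or C of the reference, 5.21% of exonic and 5.05% of intronic positions were called. The median mutation ratio was 9.23% in the exonic and 9.34% in the intronic sites, with interquartile ranges of 7.17% to 11.4% in both.

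Of the positions that passed in replicates 1, 2 and 3, 79.2%, 79.1% and 79.7% were intronic (mean 79.3% ± 0.342, SD, n = 3), where introns are 81.9% of the transcript. The same share was 70.7% ± 2.50 in A2M, 50.5%, 46.8% and 54.4% in replicates 1, 2 and 3 of FN1 and 39.1% ± 2.28 in APOB, whose introns are 90.4%, 88.8% and 66.9% of the transcript. DHRS2 exceeded A2M by 8.65 ± 2.17, FN1 by 28.7 ± 3.49 and APOB by 40.2 ± 1.94 percentage points, in 3 of 3 replicates each. For sites called in all 3 replicates the intronic share was 80.5% in DHRS2, 53.1% in A2M, 23.7% in FN1 and 24.6% in APOB. DHRS2 also had the lowest exon over intron depth of the 4 genes, though the other 3 do not follow the same order in both measures, and the part of depth in the difference was not tested.

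The difference depends on the annotation. When exons of any transcript were taken as exons, 16.0% ± 0.545 of the DHRS2 positions were intronic against 68.7% in A2M, 38.5% in FN1 and 38.4% in APOB, and all 3 differences changed sign. With a mutation ratio of at least 10% required, DHRS2 was at 83.5% and A2M at 88.7%, which also turned that difference. Under the same requirement the difference from FN1 was 6.38 ± 8.50 percentage points (SD, n = 3), no longer of one sign in all replicates, and that from APOB was 25.9 ± 5.08.

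**Figure D3:**
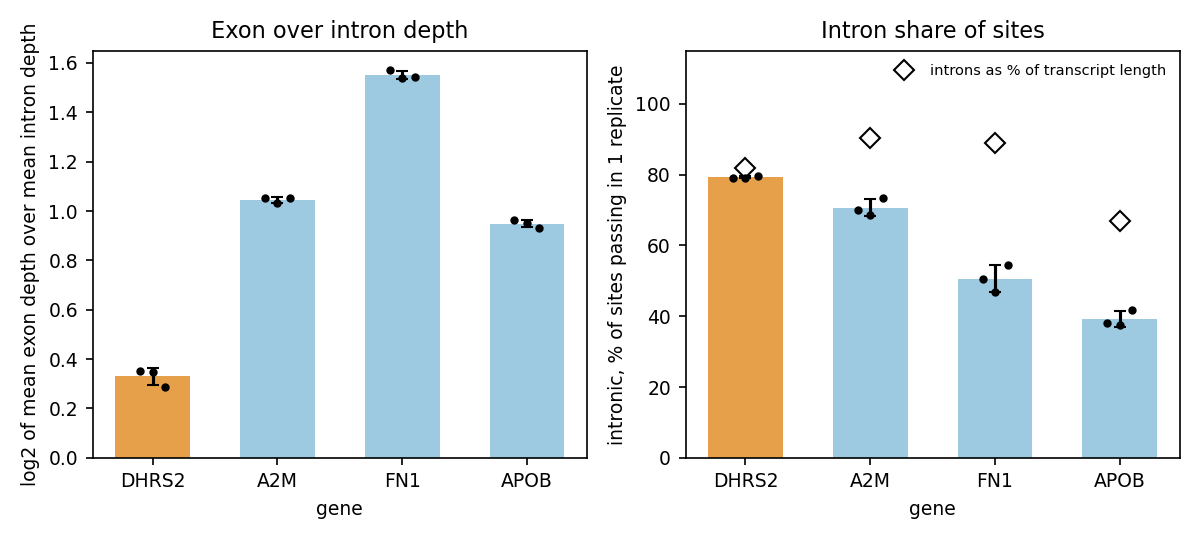
Left, log2 of mean exon over mean intron depth at positions listed in both tables. Right, intronic share of positions that passed in 1 replicate (percent), with open diamonds for introns as a share of the canonical transcript's length. Bars are means with SD and points are the 3 replicates. DHRS2 has the lowest bar on the left and the highest on the right, close to its diamond.

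Mutation ratios over listed positions were lower in the exons of DHRS2 than in its introns. Exons stood at 4.71%, 4.75% and 4.99% and introns at 5.36%, 5.43% and 5.49% in replicates 1, 2 and 3, and the classes did not overlap. The difference of exon minus intron was -0.61 ± 0.094 percentage points (SD, n = 3), negative in 3 of 3 replicates. It was -0.34 at a depth of at least 50, -0.99 at positions listed in both tables and -0.072 with exons of any transcript. Exons were also the deeper class, and at a higher depth a position is listed at a lower ratio. The part of depth in the difference was not tested.

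Exon 3 had the highest T share of all features at 6.72% ± 0.884 and exon 8 the lowest at 3.75% ± 0.794 (SD, n = 3). Exon 3 was also the least listed, with 20.1% of its G, A and C positions in the imbalanced table and only 3 called sites, while exon 8 had 50% and 4. Among introns the T share ran from 4.81% ± 0.596 in intron 2 to 6.14% ± 0.155 in intron 6. Intron 4, the longest at 3256 nt, held 831 listed positions and 127 called sites, and its T share of 5.42% ± 0.171 lay in the middle of that range. Called sites per G, A or C position were fewest in exon 3 (1.95%) and intron 8 (2.06%) and most in exon 6 (11.4%), where they were 4 sites.

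**Figure D4:**
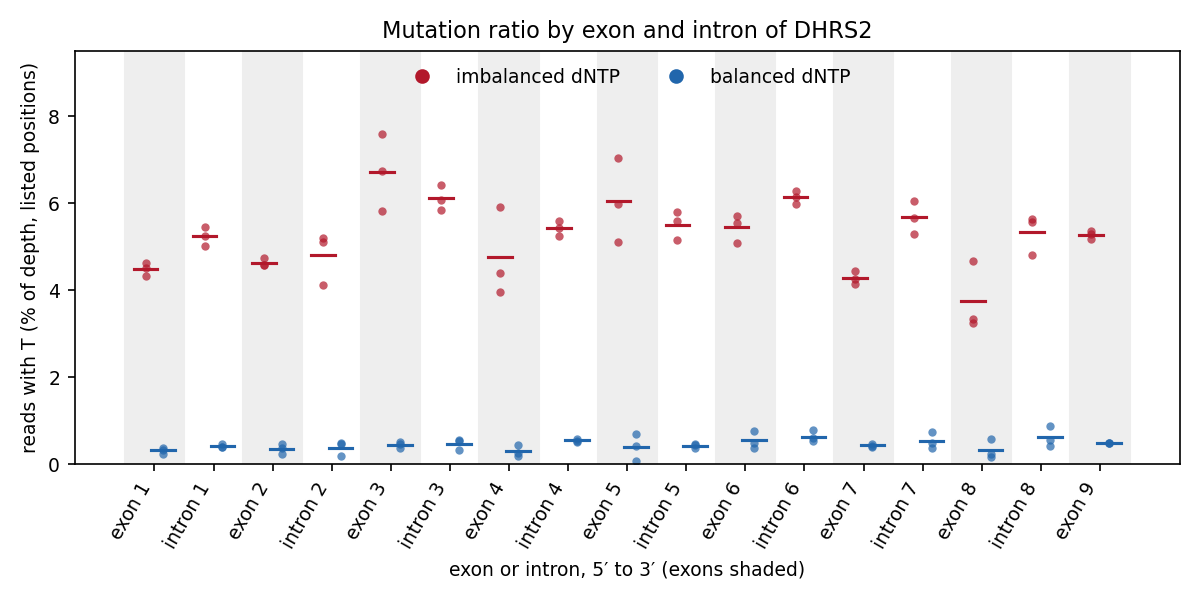
Share of reads with T (percent of depth over the positions listed in the table of the library kind) in each exon (shaded) and intron of DHRS2, 5′ to 3′. Points are the 3 replicates and lines their means, in red for imbalanced and blue for balanced dNTP. All red points lie above 3% and all blue points below 1%.

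Near splice sites the T share of DHRS2 introns varied little. It was 5.58% ± 0.502 within 50 nt of a 5′ splice site and 5.67% ± 0.185 at more than 200 nt from it, and 5.09% ± 0.107 and 5.37% ± 0.144 for the same distances from a 3′ splice site (SD, n = 3). Called sites per G, A or C position were 8.99% from 51 to 200 nt before a 3′ splice site, 6.96% within 50 nt and 2.97% beyond 200 nt. On the 5′ side they were between 5.30% and 5.63% at all 3 distances. Median depth on the 3′ side was 57, 49 and 79 from 51 to 200 nt and 43, 38 and 59.5 beyond, in imbalanced replicates 1, 2 and 3, and its part in these counts was not tested.

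Intron 2, at chr14:23639005-23639178, shows how such sites lie in a short intron with no annotated retained form. It had 8 called sites, which are the capitals in the line below, from the first to the last base of the intron.
Intron 2: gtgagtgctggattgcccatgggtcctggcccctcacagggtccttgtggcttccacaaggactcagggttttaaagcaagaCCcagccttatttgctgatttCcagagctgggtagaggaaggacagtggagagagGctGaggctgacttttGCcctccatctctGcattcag

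The 8 sites lay at positions 83 to 167 of the 174 nt. The highest was the G at 23639171, 8 nt before exon 3, with T in 9 of 47, 6 of 31 and 10 of 57 reads, or 18.7% ± 0.991 (SD, n = 3). The lowest was the G at 23639142, with T in 3 of 91, 3 of 71 and 4 of 105 reads, or 3.78% ± 0.465. The pair G and C at 23639158 and 23639159 stood at 14.3% ± 3.15 and 13.8% ± 5.13. Depths at the 8 sites ran from 31 to 105 reads.

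Called sites of DHRS2 were mostly G. Of the 344 sites 213 were G (61.9%), 83 were C and 48 were A, and sites whose mean mutation ratio reached 10% were 99 G, 26 C and 10 A. Per reference position, 9.41% of G, 3.39% of C and 2.34% of A were called. Over listed positions G had a T share of 6.14% ± 0.191, C of 5.09% ± 0.263 and A of 4.31% ± 0.0154 (SD, n = 3). G exceeded A by 1.83 ± 0.203 and C by 1.05 ± 0.396 percentage points in 3 of 3 replicates each. In the balanced libraries the order differed, with C at 0.548%, A at 0.420% and G at 0.419%.

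Exons and introns had the same leading base. G made up 65.7% of the exonic and 61.0% of the intronic called sites, while C made up 14.9% and 26.4%.

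The base before a G divided the called sites of DHRS2 more sharply than its class. Of 768 G positions that follow a U, 198 were called (25.8%), and of the 1496 other G positions 15 were (1.00%). The called share was 6.96% after C, 0.713% after G and 0.294% after A. G positions after U are 33.9% of all G positions of the transcript and 93.0% of the called ones.

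The T share showed the same order over listed positions. After U it was 7.26%, 7.75% and 7.29% in imbalanced replicates 1, 2 and 3, and after any other base 3.57%, 3.74% and 3.79%. The values did not overlap, and the difference was 3.73 ± 0.256 percentage points (SD, n = 3). In the balanced libraries the shares were 0.385% ± 0.0685 after U and 0.441% ± 0.00517 after other bases. The difference under imbalanced dNTP was 3.59 in exons alone and 3.76 in introns alone. It was 4.76 at positions chosen in 1 replicate and read in the others.

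The share of called G sites that follow a U was 91.0% in A2M, 88.4% in FN1, 86.6% in APOB and 63.7% over all 11882 called G sites of the table. Among listed G positions the share was 67.2% in DHRS2, 73.4% in A2M, 75.9% in FN1, 71.9% in APOB and 76.7% over the whole table. The preference was thus not particular to DHRS2, being shared by A2M, FN1 and APOB. Over the whole table called G sites followed a U less often than listed G positions did. In NEAT1 10215 of 13878 and in MALAT1 4118 of 4885 positions of any base at a depth of at least 10 were called. The median mutation ratios of these calls were 3.41% and 2.78%, and their part in the whole-table share was not tested. The difference of DHRS2 from A2M, FN1 and APOB was not tested either. The preference was looked for after the values of DHRS2 had been seen.

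The base after the G divided the sites less. Called shares were 18.0% before U, 13.4% before C, 4.65% before A and 3.99% before G. G before U exceeded the other G positions by 1.17 ± 0.157 percentage points in T share (SD, n = 3). This difference was 1.27 ± 0.118 in introns alone and 0.616 ± 0.684 in exons alone, where it was smaller than its spread between replicates. Among G positions that follow a U, 42.7% were called where a U came next and 34.2% where a C came next, against 14.5% before A and 12.6% before G. The T share of these classes was 9.24% ± 0.273, 8.72% ± 0.464, 5.65% ± 0.332 and 5.38% ± 0.0318.

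The context with U on both sides, UNU, was taken from the study's own analysis of these libraries and so is not independent of them. In DHRS2 it covered 7.80% of the G, A and C positions and 31.7% of the called sites. The T share was 6.91% ± 0.127 in UNU and 4.98% ± 0.0944 elsewhere, a difference of 1.93 ± 0.146 percentage points (SD, n = 3), positive in 3 of 3 replicates. The sign was not the same for every base. For G the difference was 3.82 ± 0.120 and for A 1.78 ± 0.167 percentage points, while for C it was -0.37 ± 0.202, negative in 3 of 3 replicates. Of the 26 C sites with a mean ratio of at least 10%, none lay in UNU.

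**Figure D5:**
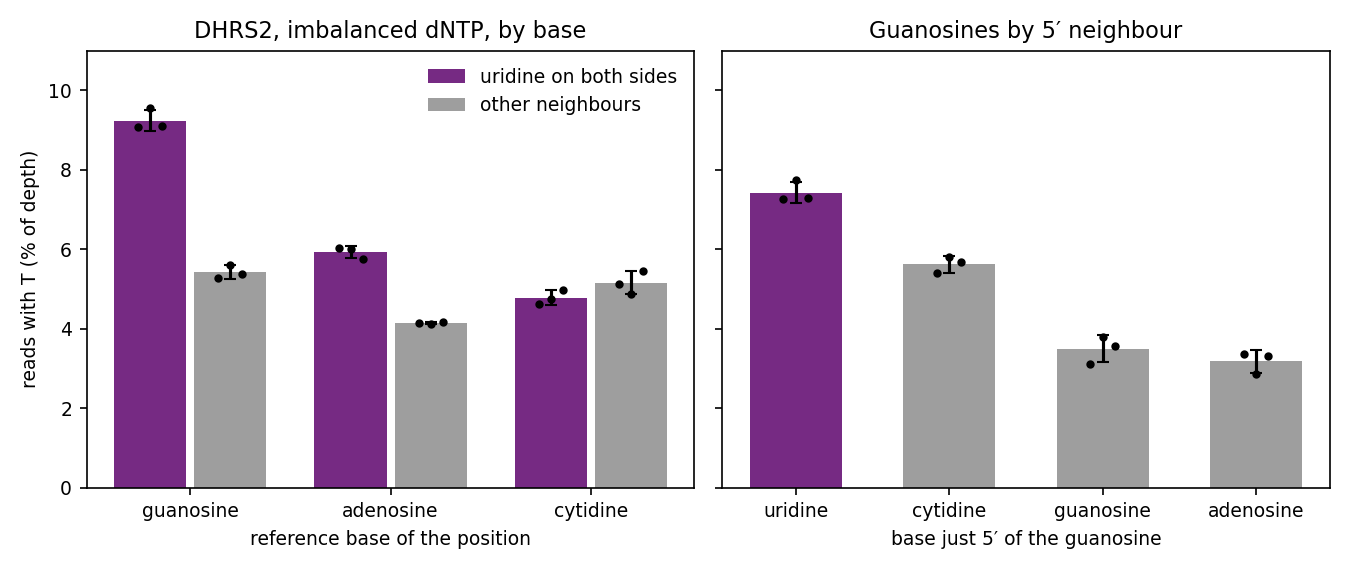
Share of reads with T (percent of depth) under imbalanced dNTP over DHRS2 positions with a depth of at least 10. Left, by reference base, with U on both sides (purple) or other neighbours (grey). Right, guanosines by the base just before them. Bars are means with SD and points are the 3 replicates. Guanosines after uridine stand above those after any other base, and the cytidine bars lie at 4.78% with and 5.16% without flanking uridines.

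The highest exonic site at 30 or more reads was the C at 23636631 in the untranslated part of exon 1, whose sequence is given above. T was found in 13 of 50, 9 of 38 and 10 of 58 reads, or 22.3% ± 4.54 (SD, n = 3). In the input it was found in 0 of 123, 0 of 104 and 1 of 136 reads, where the counts of 0 allow shares of up to 2.44% and 2.88%. The 3 imbalanced ratios stood above all 3 inputs, but the site criteria already require each ratio to exceed 3 times its own input. The exonic sites were named at a lowest depth of at least 30, a choice made after the values were seen.

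The G at 23636701, 71 nt before the end of exon 1, reached 20.2%, 18.9% and 15.9%. The G at 23639313 in the coding part of exon 3 had T in 6 of 33, 7 of 33 and 7 of 43 reads, or 18.6% ± 2.49. The coding G at 23644427 in exon 7, in UNU context, had the least spread of the named sites, with 10 of 57, 9 of 52 and 10 of 56 reads, or 17.6% ± 0.276. The 95% Wilson interval of its replicate 1 alone ran from 9.82% to 29.4%. The G at 23645344 in exon 9 stood at 16.6% ± 2.04 (SD, n = 3).

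Among intronic sites at 30 or more reads the G at 23642063 in intron 4 was the highest, with T in 10 of 52, 9 of 37 and 15 of 65 reads, or 22.2% ± 2.65 (SD, n = 3). The G at 23640173, also in intron 4, had 5 of 38, 9 of 42 and 13 of 51 reads with T, against 0 of 96, 0 of 88 and 1 of 91 in the input. The G at 23643510 in intron 5 stood at 19.7% ± 5.45 and the G at 23644665 in intron 7 at 19.1% ± 6.89. These sites lay from 122 to 1089 nt from the nearest splice site.

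The G at 23643005 in intron 4 was the least even of the named sites. T was found in 11 of 42 and 7 of 30 reads in replicates 1 and 2, but in 5 of 76 reads in replicate 3. The 95% Wilson intervals, which cover counting error only, were 15.3% to 41.1% in replicate 1 and 2.84% to 14.5% in replicate 3 and did not overlap. Its mean of 18.7% ± 10.6 (SD, n = 3) therefore rests on replicates 1 and 2.

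Each base was also taken at its highest site with 50 or more reads in each imbalanced library. The A at 23637280 in intron 1 had T in 10 of 59, 6 of 50 and 10 of 97 reads, or 13.1% ± 3.45, and was the highest A site at that depth. The C at 23638631 in intron 1, the highest C site at that depth, stood at 10.8% ± 1.41 (SD, n = 3). Both lay below the highest G site at that depth, at 23636701, in each replicate.

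Of 39 other genes of the short-chain dehydrogenase/reductase family, 6 had any position listed under imbalanced dNTP and none had a called site. These 6 had from 1 to 41 listed positions, with median depths of 5 to 8 reads in each of the 3 libraries. Only 1 of these positions, in DHRS3, was read 10 or more times in each of the 3 libraries, and it was not called. Sites like those of DHRS2 were not detectable at the others, which lay below the minimum of 10 reads in at least 1 library.

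Sequence shared with other places of the genome touched few of the sites. Of 918 windows of 100 nt along the transcript, 24 (2.61%) had a copy elsewhere with at least 97% identity over 95% of the window, and 14 of the 344 called sites lay in such windows. Reads of these windows cannot be assigned to DHRS2 with certainty.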

How the data were processed

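The data are Nm-mut-seq counts of HepG2 caRNA, with 3 imbalanced and 3 balanced dNTP libraries. Before deposition the authors used Cutadapt for adapters, BBMap for duplicates sharing a molecular identifier, TopHat2 for alignment (hg38, reads with up to 4 places kept) and JACUSA for base calls. The deposited tables hold, for every listed position and strand, raw counts of reads with A, C, G and T in each library. Groups and replicate numbers come from the labels. DHRS2 was taken as the GENCODE release 44 gene body, and exons and introns as those of its canonical transcript.

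Sites were called by the criteria of the methods (depth of at least 10, at least 3 reads with T, more than 3 times the input), with an unlisted input taken as 0; the criterion on spike-in background was not applied, as those values are not analysed here. Mutated and unmutated reads at 32284 positions were fitted in R 4.3.3 by the quasi-likelihood test of edgeR 4.0.16, with library effects and the replicate number as a block, and p-values were adjusted by Benjamini-Hochberg. The fit was tested on simulated data, which held counting error but no further variation between replicates, so that test does not cover such variation. Differences within DHRS2 were tested with exact sign-flip tests over 3 replicates. Alternatives included DESeq2 1.42.0, Fisher's exact test, other minimum depths, T counts and ratios, other exon annotation and leaving out each replicate. Other steps used Python 3.11.15, scipy 1.17.1, pysam 0.24.0 and blastn 2.17.0.

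The replicate numbers pair the libraries, since each pair was made from the same ligated RNA. Deviations of log2 depth from the group mean correlated at 0.51, 0.34 and 0.72 within the pairs of replicates 1, 2 and 3. Between libraries of different replicates the correlations ran from -0.60 to 0.39, so the highest of them lay above that of the pair of replicate 2. Replicates had the same T count and depth at no more than 0.581% of the DHRS2 positions.

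The members, gene lists and tests were chosen with earlier results of these data known. Named were every exon and intron, the 5 highest exonic sites at a depth of at least 100 (none) and intronic sites at 30, the highest site of each base at 50, the genes A2M, FN1 and APOB, the 3 genes with the most similar levels, and the family list. The 5 exonic sites at 30 and the bases beside G were added after the values were seen. Intervals and limits cover counting error only.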

Additional observations from a re-analysis of the deposited data

How the results depend on the processing

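The number of called sites in DHRS2, 344, was 143 at a minimum depth of 50, 88 with at least 5 reads with T, 53 with a mutation ratio of at least 0.1 and 84 with a listed input, and ranged from 447 to 611 when a replicate was left out (550 without replicate 1, 611 without replicate 2). It stayed within 1.5 times under the other alternatives, the pooled input and the positions outside copied windows included. The 222 positions called higher by edgeR with the replicate block became 357 with no replicate block, 36 by Fisher's exact test in each replicate, and 26 to 40 when a replicate was left out (26 without replicate 1, 40 without replicate 2, 30 without replicate 3); DESeq2 called 262. Of 91 alternatives to the 16 differences tested over replicates, 87 kept their direction. The intron share of DHRS2 minus that of A2M turned to -5.18 percentage points with a mutation ratio of at least 0.1, where those from FN1 and APOB were 6.38 and 25.9, and with exons of any annotated transcript the differences from A2M, FN1 and APOB turned to -52.8, -22.5 and -22.4. The reversals with exons of any annotated transcript depend on the annotation, which places most canonical intron bases of DHRS2 in an exon of another transcript. Leaving out a replicate kept every direction. The test of 3 replicates cannot pass 0.05, and depths of 16 to 97 at called sites leave single ratios with wide intervals. Alternatives on the base before and after G, the positions that failed the input criterion and the copied windows were chosen after seeing the data.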
